A study of Mus musculus with 8 samples.

Results

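The endoderm genes examined here are 29 genes that mark extraembryonic or definitive endoderm, followed across 8 clones of mouse induced pluripotent stem cells (iPSCs). The rule lists them by name and uses no measured value, though the members were chosen with earlier results of these data known. Where a symbol had several RefSeq records, the record with the highest mean count stood for it. They make up 29 of the 21428 gene symbols in the count table. Of them 26 had a single record, while *Pdgfra*, *Dab2* and *Rbp4* had several, and 25 passed a filter that asked for 5 or more reads in 4 or more of the 8 libraries, as did 14830 symbols in all. The other 4, *Afp*, *Ttr*, *Rbp4* and *Fabp1*, had between 2 and 15 reads in all libraries together and were described without a fit. The study asked whether the absence of PIWI proteins, which bind small RNAs in the germline, changes the transcriptome of iPSCs.

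The 4 TKO clones, numbered 35, 37, 47 and 48, came from embryonic fibroblasts (MEFs) that lacked functional *Miwi*, *Mili* and *Miwi2*. In these alleles most of *Miwi* is replaced by GFP, coding exons of *Mili* are deleted, and *Miwi2* carries stop codons. The 4 Ctrl clones, numbered 33, 34, 41 and 43, came from control littermates, given as triple heterozygous in the methods of the study and as wild type or heterozygous in its legends. All 8 were reprogrammed with retroviruses for OCT4, SOX2, KLF4 and c-MYC and carried an Oct4-GFP reporter on a mixed strain background. They were kept in serum and LIF and were labelled as under 10 passages. Picked colonies were moved onto inactivated MEF feeders, and the methods do not say whether feeder cells were removed before RNA was taken. Each library was made from 1 clone, and no label says which clones share an embryo, so p-values measure the spread between clones. In each genotype 2 clones are numbered in the forties and 2 in the thirties. These sets are called clone series, and no label gives the meaning of the numbers. A bulk sample cannot tell more cells of a type from more RNA per cell, so each level below is the level of the whole culture.

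Primitive endoderm is the early embryonic layer that gives the visceral and parietal endoderm around the embryo, and definitive endoderm arises later from the primitive streak and forms the gut and its glands. GATA factors and SOX17 act at the start of primitive endoderm, FOXA factors and the HNF4 receptor then run programmes of nutrient uptake and of secreted carrier proteins, and the parietal layer lays down a thick basement membrane of laminin and type IV collagen. Pluripotent stem cells kept in serum and LIF are known to hold a small share of cells that express primitive endoderm genes.

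Total counts ran from 24593995 to 52457455 in TKO libraries (median 36917819) and from 8983203 to 24688324 in Ctrl libraries (median 20604792). TKO 35 and TKO 37 were the deepest libraries and Ctrl 33 the shallowest. Counts were divided by size factors of the median-ratio method and are called normalized counts. The lowest median chi-square per record within a genotype was 1.55 for TKO 35 with TKO 37 and 1.61 for Ctrl 41 with Ctrl 43. Both were above sampling noise, and the other pairs had higher values, up to 14.7. This chi-square grows with depth, so its values do not rank the relative differences of pairs of unlike depth. *Miwi* had 2.41 to 4.53 normalized counts in TKO and 8.13 to 28.8 in Ctrl clones. The *Mili* record had 3844 to 10080 in TKO and 758 to 1028 in Ctrl clones, and a count over the whole record cannot show its deleted exons. The 16 pluripotent cell markers summed to 187800 to 211100 normalized counts in TKO and 163000 to 210200 in Ctrl clones.

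Per kilobase of the record, the members spanned a wide range of levels. The most abundant by mean over the 8 clones was *Apoe*, an apolipoprotein, at 10530 normalized counts per kilobase. The laminin and collagen genes followed with *Lamc1* at 1911, *Lamb1* at 1068, *Col4a1* at 775, *Col4a2* at 551 and *Lama1* at 216 normalized counts per kilobase. The transcription factors of endoderm were far lower: *Hhex* had 97.5 and *Gata4* 31.5 normalized counts per kilobase, and *Ttr* and *Afp*, which encode carriers abundant in mature visceral endoderm, had 1.03 and 1.08. The members also varied more between clones than most records did. The highest clone exceeded the lowest by a median of 4.84-fold over the 25 members that passed the filter, against 2.02-fold over all 16235 records that passed, and by over 4-fold in 13 of 25 members (52%) against 19.1% of records. This ratio grows where reads are few, as in *Apoa1* and *Pdgfra* with 60 and 61 reads in all libraries. The records were not matched to the members for level, so the part of low counts in this difference was not tested. Of the 25, 9 were highest in Ctrl 41 (36%), the clone that was highest for 10.2% of all records.

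**Figure D1:**
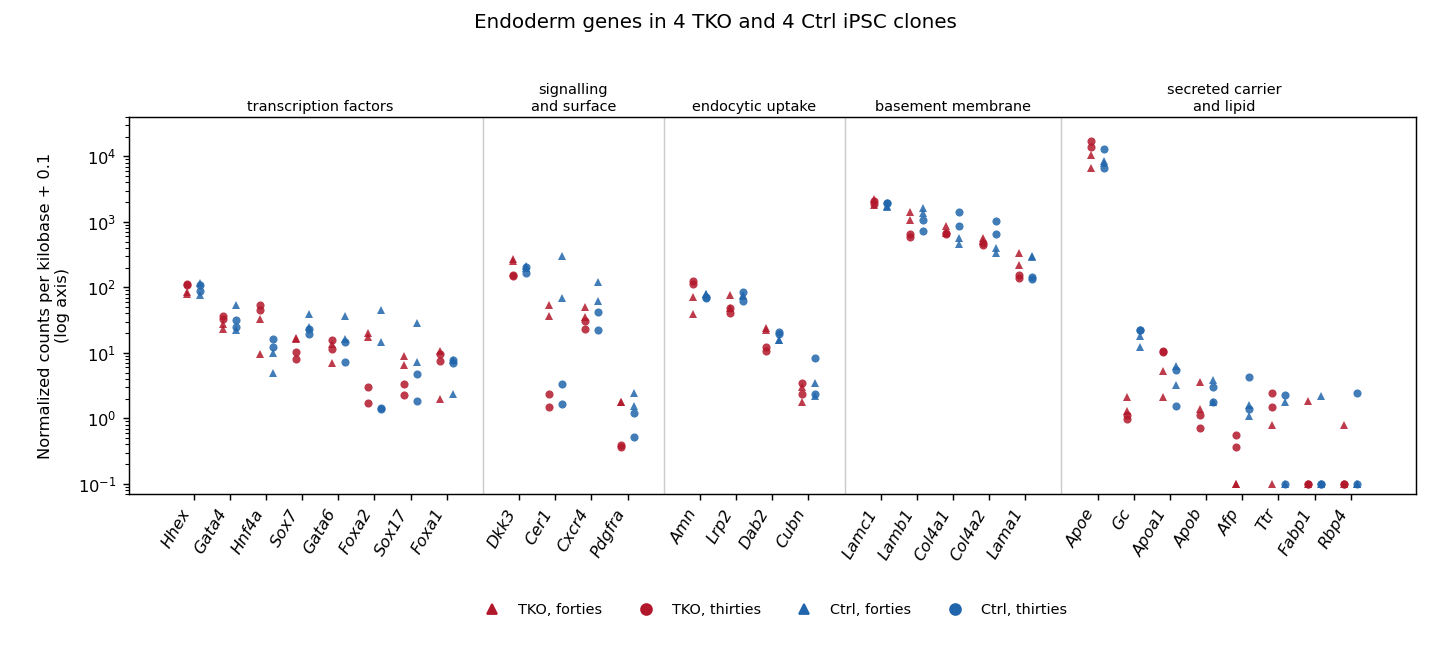
Normalized counts per kilobase, plus 0.1 and on a log axis, for the 29 endoderm genes in each of 4 TKO and 4 Ctrl clones, grouped by role, with triangles for forties and circles for thirties clones. *Apoe*, *Lamc1*, *Lamb1*, *Col4a1* and *Col4a2* sit at the top in every clone, *Gc* separates the genotypes, and *Cer1* and *Foxa2* separate the clone series.

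Between TKO and Ctrl clones, a single endoderm gene passed the test. *Gc*, which encodes the vitamin D-binding protein secreted by visceral endoderm and liver, fell in TKO clones, and 0 of the 25 rose. *Gc* had 1.70, 1.45, 2.00 and 3.42 normalized counts in TKO 35, 37, 47 and 48, against 37.9, 37.4, 30.1 and 20.4 in Ctrl 33, 34, 41 and 43. Every TKO clone was far below every Ctrl clone, in both clone series. The means were 2.14 ± 0.882 in TKO and 31.5 ± 8.21 in Ctrl clones (SD, n = 4 each), which is a log2 change of -3.85 (standard error 0.38 and adjusted p = 0.00286 in edgeR's quasi-likelihood test with Benjamini-Hochberg adjustment over all records). These levels rest on few reads, 12 in the TKO and 89 in the Ctrl libraries together, and the TKO libraries were the deeper ones. *Gc* passed the filter through its Ctrl clones alone, so its call, here and in the fits that follow, is no independent result. The study had already listed *Gc* among the genes lower in TKO clones, from the same libraries. The 1 call among 25 members stands beside a background of 0.24% of all records called, 0.0862% higher and 0.154% lower, and *Gc* was also past the 2.5-fold threshold of the study, as were 0.166% of records. At an unadjusted p under 0.05 1 member was higher and 3 were lower (14.8% of all records in either direction). With DESeq2 *Gc* and *Hnf4a* were called, and with limma-voom *Gc* alone.

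The call of *Gc* held when each clone was left out in turn (log2 fold change -4.12 to -3.67, adjusted p 0.00367 to 0.0184). It could not be tested where at least 10 reads were asked of every library. Within the series its log2 fold change was -3.14 in the forties (adjusted p = 0.0211) and -4.49 in the thirties (adjusted p = 0.00165), and the difference between these was not past the threshold (interaction 1.35, standard error 0.75, adjusted p = 0.395).

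*Gc* lies on chromosome 5 at chr5:89846549-89886790 (mm9, minus strand), 1003124 bases from *Alb* (chr5:90889915-90905629), which is followed by *Afp* (chr5:90919740-90937933) and *Afm* (chr5:90947958-90982569), all on the plus strand. These 4 are the albumin gene family, whose products carry ligands in plasma, and their windows of 250 bases before the transcript start are shown because *Afm* and *Afp* were also low in every TKO clone. The sequences are those of RefSeq on GRCm38.p6, read along the strand of the gene. Capitals mark ACAAAG or its reverse complement CTTTGT, letters of the site of SOX factors, the family of the members *Sox17* and *Sox7*.
Gc (chr5:89457899-89458148, minus strand): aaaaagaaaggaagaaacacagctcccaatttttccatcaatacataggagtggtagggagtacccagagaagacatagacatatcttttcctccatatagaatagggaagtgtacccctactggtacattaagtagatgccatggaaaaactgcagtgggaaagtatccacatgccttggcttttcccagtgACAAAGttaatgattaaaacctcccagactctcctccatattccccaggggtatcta
Afm (chr5:90518699-90518948, plus strand): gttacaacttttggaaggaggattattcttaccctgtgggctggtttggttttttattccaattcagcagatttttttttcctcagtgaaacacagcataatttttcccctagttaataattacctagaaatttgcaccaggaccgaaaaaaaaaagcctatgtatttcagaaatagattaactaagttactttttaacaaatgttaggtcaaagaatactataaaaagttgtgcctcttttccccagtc
Afp (chr5:90490464-90490713, plus strand): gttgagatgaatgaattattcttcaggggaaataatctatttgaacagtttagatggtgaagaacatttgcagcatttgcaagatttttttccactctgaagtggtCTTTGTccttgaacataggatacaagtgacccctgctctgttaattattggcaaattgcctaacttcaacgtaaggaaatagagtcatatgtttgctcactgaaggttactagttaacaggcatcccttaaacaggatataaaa
Alb (chr5:90460620-90460869, plus strand): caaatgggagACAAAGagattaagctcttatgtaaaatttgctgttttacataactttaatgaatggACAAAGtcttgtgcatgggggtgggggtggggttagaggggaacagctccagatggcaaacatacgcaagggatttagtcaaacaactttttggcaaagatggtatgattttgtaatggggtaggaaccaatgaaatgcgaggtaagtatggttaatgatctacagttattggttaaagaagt
The letters begin 57 bases before the start in *Gc*, 144 in *Afp* and 240 and 183 in *Alb*, where the second match shares 5 bases with an HNF4 motif (CAAAGTC), and the *Afm* window holds none. Counting a gene where any of its windows has a match, they occur in 18.6% of the 27025 genes with a window, and in 5 of the 21 members with one (23.8%), which are *Gc*, *Afp*, *Apoe*, *Foxa1* and *Foxa2*. The 9 motifs searched on both strands were these letters and ACAATG for SOX factors, AGATAA, also searched as TGATAA, for GATA factors, TGTTTAC, also searched as TATTTAC, for FOXA factors, CAAAGTC for the HNF4 receptor, GGGCGG for the SP1 factor, and the common promoter box TATAAA. Of these GGGCGG was the most frequent, in 10 of the 21 members (47.6%) and in 35.4% of all genes with a window. A match of letters is a description of the window and not a measured site.

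*Afm*, which encodes afamin, a vitamin E-binding protein, had 1.13, 0.483, 0 and 0 normalized counts in TKO 35, 37, 47 and 48, against 10.8, 8.64, 15.6 and 17.3 in Ctrl 33, 34, 41 and 43. The genotypes did not overlap, as in 8.33% of all records that passed the filter. The reads were 3 in the TKO libraries and 42 in the Ctrl libraries together, a ratio of 0.0358 after scaling (95% exact interval 0.00709 to 0.112, which covers counting error only). *Afp*, the gene of alpha-fetoprotein, a classical visceral endoderm marker, had 0.566, 0.965, 0 and 0 normalized counts in the TKO clones, against 2.71, 8.64, 3.12 and 2.04 in the Ctrl clones in the same order. After scaling it too was lower in every TKO clone than in every Ctrl clone, with 3 and 12 reads and a ratio of 0.125 (95% exact interval 0.0227 to 0.464). Before scaling its reads overlapped, at 1, 2, 0 and 0 in the TKO and 1, 6, 3 and 2 in the Ctrl libraries. *Alb*, the gene of albumin, had 0.566, 0.965, 3.01 and 12.8 in TKO and 0, 0, 11.4 and 17.3 in Ctrl clones. Its genotypes overlapped, and the higher values lay in the forties clones of both. Without the filter, over 22149 records, edgeR's quasi-likelihood test gave a log2 fold change of -4.50 (adjusted p = 0.0111) for *Afm*, -2.81 (adjusted p = 0.247) for *Afp*, -1.08 (adjusted p = 0.658) for *Alb* and -3.84 (adjusted p = 0.00185) for *Gc*. *Afm* is not among the 29 members and was added because its genotypes did not overlap. The p-value and the interval of *Afm* thus describe a gene picked for that outcome and are no independent result.

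**Figure D2:**
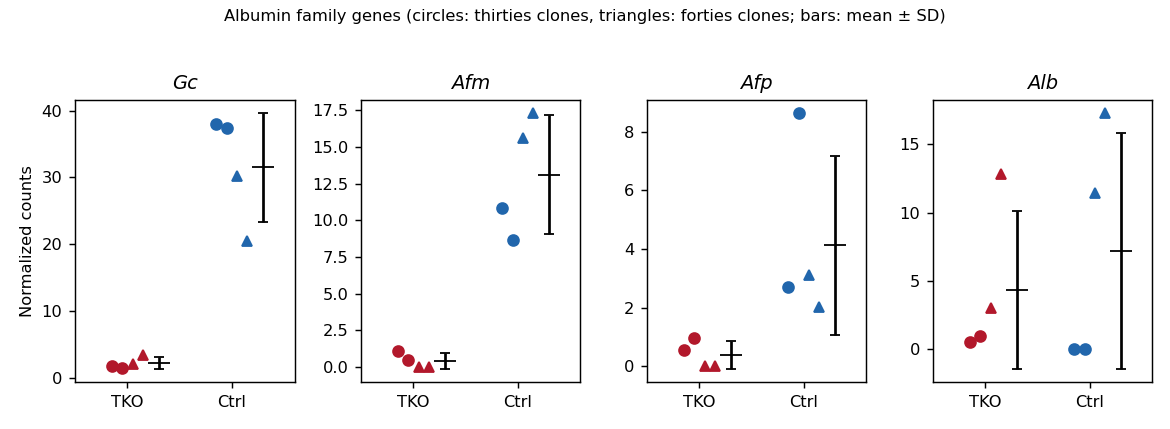
Normalized counts of the 4 albumin family genes in each TKO clone (left) and Ctrl clone (right) of each panel, with bars for the mean ± SD of 4 clones. *Gc*, *Afm* and *Afp* do not overlap between the genotypes, as in 8.33% of all records that passed the filter, and *Alb* does. *Afp* rests on 3 reads in the TKO and 12 in the Ctrl libraries, which overlap before scaling.

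The other secreted proteins did not follow *Gc*. *Apoe* had 22120, 17580, 13100 and 8349 normalized counts in TKO 35, 37, 47 and 48, against 16250, 8566, 10770 and 9913 in Ctrl 33, 34, 41 and 43. The genotypes overlapped, with the highest and the lowest value both in TKO clones, and the log2 fold change was 0.43 (adjusted p = 0.494). *Apob*, the protein core of lipoprotein particles, had 8.49, 14.5, 18.03 and 47.9 in TKO and 40.6, 23.0, 51.9 and 23.4 in Ctrl clones. It overlapped as well, at -0.66 (adjusted p = 0.566). *Apoa1*, the main protein of high-density lipoprotein, ranged over 2.00 to 10.6 normalized counts in TKO and 1.44 to 6.11 in Ctrl clones (0.88, adjusted p = 0.490). *Ttr*, the thyroxine carrier transthyretin, had 13 reads in all libraries, *Rbp4*, the retinol carrier, had 3, and *Fabp1*, a fatty acid-binding protein, had 2. No genotype difference in them was detectable at these counts. *Rbp4* has 2 records, and how reads shared between them were counted is not known.

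Over all 25 members the median log2 fold change between TKO and Ctrl was -0.27, with 7 positive and 18 negative values, beside a median of -0.01 over all records. Genotypes without overlap were found for *Gc* and *Sox7*, 2 of 25 and both lower in TKO clones, and for 8.33% of all records, 4.1% with TKO higher and 4.23% with TKO lower. *Sox7* (chr14:64562511-64569569, mm9), a SOX factor of primitive and parietal endoderm, had 26.0, 33.3, 53.1 and 55.6 normalized counts in TKO 35, 37, 47 and 48, against 75.9, 63.4, 129.8 and 79.5 in Ctrl 33, 34, 41 and 43. All TKO clones were below all Ctrl clones, and in each genotype the forties clones were above the thirties clones. At -1.07 on the log2 scale it did not pass in the comparison of genotypes (standard error 0.33, adjusted p = 0.227).

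*Hnf4a* (chr2:163332544-163398646, mm9), a nuclear receptor of visceral endoderm and liver, was the member with the largest positive change between genotypes. It had 235, 196, 143 and 41.0 normalized counts in TKO 35, 37, 47 and 48, against 70.4, 53.3, 42.6 and 21.4 in Ctrl 33, 34, 41 and 43. TKO 48 lay within the range of the Ctrl clones and the other TKO clones above it, and in both genotypes the thirties clones were the higher ones. Its change of 1.76 on the log2 scale did not pass (standard error 0.52, adjusted p = 0.214), and over its alternatives the adjusted p ran from 0.0302 in DESeq2 to 0.520.

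Once the model held a term for clone series, 3 of 25 members passed between the genotypes, beside a background of 5.7% of all records, 2.6% higher and 3.1% lower. *Gc* (-3.88, adjusted p = 0.00153) and *Sox7* (-1.07, standard error 0.22, adjusted p = 0.0284) fell in TKO clones, and *Hnf4a* rose (1.67, standard error 0.37, adjusted p = 0.0351). *Gc* held when each clone was left out in turn. *Sox7* lost its call without Ctrl 41, TKO 35, TKO 37 or TKO 47 (adjusted p up to 0.116) and *Hnf4a* lost its call without every clone but TKO 48 (adjusted p up to 0.121).

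The remaining transcription factors did not pass between the genotypes. *Hhex*, a homeobox factor of anterior endoderm and liver, had 192, 199.8, 142 and 149.6 normalized counts in TKO 35, 37, 47 and 48, against 195, 158, 209 and 135.5 in Ctrl 33, 34, 41 and 43. *Gata4*, a zinc finger factor of endoderm, had 111.5, 124, 78.1 and 93.2 in the TKO clones, against 108, 84.96, 179.7 and 75.4 in the Ctrl clones. Both genes overlapped between the genotypes and were highest in Ctrl 41 (log2 fold change -0.02 and -0.14, adjusted p = 0.970 and 0.848). *Gata6*, which is needed for primitive endoderm, ranged over 22.0 to 50.4 normalized counts in TKO and 23.0 to 118 in Ctrl clones, and *Foxa1*, a forkhead factor of endoderm, over 6.01 to 33.3 in TKO and 7.13 to 24.9 in Ctrl clones. Neither passed (-0.66 and 0.29, adjusted p = 0.507 and 0.813).

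Calls between genotypes were also few in wider lists, as they were over all records. Of all records 0.24% were called, and 14.8% had an unadjusted p under 0.05. None of 15 tested genes of the list of other visceral and primitive endoderm genes passed (median -0.10, with 1 gene up and 1 down at unadjusted p under 0.05), and none of 11 genes of definitive endoderm and anterior mesendoderm (median -0.29, also with 1 up and 1 down). Among 16 tested genes of parietal endoderm and other basement membranes, *Thbd*, the gene of thrombomodulin, an anticoagulant receptor found on parietal endoderm and on vessels, was the 1 called (0 higher, median -0.01). *Thbd* had 373, 341, 431 and 674 normalized counts in TKO 35, 37, 47 and 48, against 1528, 1119, 1110 and 1051 in Ctrl 33, 34, 41 and 43. The genotypes did not overlap, as in 8.33% of all records, 4.23% with TKO lower, and the log2 fold change was -1.40 (adjusted p = 0.0455). Of the 15 tested pluripotent cell markers *Pou5f1*, the gene of OCT4, was lower at 15870 to 19190 normalized counts in TKO and 24310 to 28970 in Ctrl clones (-0.61, adjusted p = 0.0380) and none was higher, and 0 of 20 fibroblast and 0 of 7 trophoblast markers passed (unadjusted p under 0.05 in 1 and in 0 of them). The study, which also asked for a 2.5-fold change, named Oct3/4 among the factors not affected and found comparable Oct4-GFP levels. A count over the *Pou5f1* record cannot tell the gene from the retroviral OCT4.

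Between the clone series, with genotype in the model, 9 of the 25 endoderm genes rose in the forties clones and 0 fell in edgeR. The background was 19.4% of all records called, 9.84% higher and 9.56% lower. An unadjusted p under 0.05 was found in 9 higher and 2 lower members, beside 2896 higher and 2823 lower of all 16235 records. The 9 called were the factors *Foxa2*, *Sox17* and *Sox7*, all 4 signalling and surface members, *Cer1*, *Pdgfra*, *Cxcr4* and *Dkk3*, and the laminin chains *Lama1* and *Lamb1*. Of the 25 members, 6 had no overlap between the series (*Cer1*, *Foxa2*, *Sox17*, *Pdgfra*, *Lama1* and *Lamb1*), as did 16.1% of all records. The median log2 change over the members was 0.25, beside 0.00 over all records. The numbers of the clones are all that defines the series, so that a shared embryo, a shared reprogramming round and a shared day of culture or library cannot be told apart.

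*Cer1* (chr4:82527655-82531052, mm9), which encodes a secreted antagonist of Nodal and BMP made by anterior visceral and definitive endoderm, showed the widest range. It had 94.2 and 64.1 normalized counts in forties clones TKO 47 and TKO 48 and 532 and 119 in forties clones Ctrl 41 and Ctrl 43, against 3.96 and 2.41 in thirties clones TKO 35 and TKO 37 and 2.71 and 5.76 in Ctrl 33 and Ctrl 34. All forties clones were more than 10-fold above all thirties clones, and Ctrl 41 was the highest of all. The log2 change was 5.22 (standard error 0.59, adjusted p = 0.00102), over 7, 5, 1 and 4 reads in TKO 35, TKO 37, Ctrl 33 and Ctrl 34. *Foxa2* (chr2:147868613-147872705, mm9), a forkhead factor of the anterior visceral endoderm and of definitive endoderm, had 37.1, 42.8, 96.6 and 30.6 in the forties clones TKO 47, TKO 48, Ctrl 41 and Ctrl 43, against 3.40, 6.27, 2.71 and 2.88 in the thirties clones TKO 35, TKO 37, Ctrl 33 and Ctrl 34. The series were again far apart, and the log2 change was 3.42 (standard error 0.48, adjusted p = 0.00214), over 6, 13, 1 and 2 reads in TKO 35, TKO 37, Ctrl 33 and Ctrl 34.

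*Sox17*, the SOX factor that acts early in primitive and in definitive endoderm, had 20.03, 27.4, 88.3 and 22.4 normalized counts in forties clones TKO 47, TKO 48, Ctrl 41 and Ctrl 43, against 10.2, 6.76, 5.42 and 14.4 in thirties clones TKO 35, TKO 37, Ctrl 33 and Ctrl 34. *Cxcr4*, the CXCL12 receptor used to sort definitive endoderm, had 63.1, 90.6, 221 and 111 in the forties clones, against 56.6, 42.0, 40.6 and 76.3 in the thirties clones in the same order. *Sox17* did not overlap between the series and *Cxcr4* did, because Ctrl 34 lay above TKO 47. Both were highest in Ctrl 41, and their log2 changes were 1.85 (adjusted p = 0.0250) and 1.03 (adjusted p = 0.0429). In the thirties clones *Sox17* rested on 18, 14, 2 and 10 reads in TKO 35, TKO 37, Ctrl 33 and Ctrl 34. *Pdgfra*, a growth factor receptor of primitive endoderm and mesenchyme, had 11.02, 11.1, 9.35 and 15.3 in the forties clones, against 1.70, 1.93, 2.71 and 7.20 in the thirties clones. The series did not overlap (1.93, adjusted p = 0.0148). At 61 reads in all libraries and 2 records for its symbol, *Pdgfra* was among the less certain members.

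*Dkk3*, a secreted protein of the Dickkopf family, had 909, 860.1, 675 and 711 normalized counts in forties clones TKO 47, TKO 48, Ctrl 41 and Ctrl 43, against 523, 496, 677 and 563 in thirties clones TKO 35, TKO 37, Ctrl 33 and Ctrl 34. The gap was wide in TKO and small in Ctrl clones, where Ctrl 33 lay above Ctrl 41. Its log2 change was 0.49 (adjusted p = 0.0393), and that of *Sox7*, whose levels by clone are given above, was 0.74 (adjusted p = 0.0415).

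Laminin-111, the laminin of the earliest basement membranes, is a trimer of the chains from *Lama1*, *Lamb1* and *Lamc1*, and its chains did not move as a unit. *Lama1* (chr17:68046605-68171985, mm9) had 2122, 3157, 2770 and 2913 normalized counts in forties clones TKO 47, TKO 48, Ctrl 41 and Ctrl 43, against 1467, 1336, 1392 and 1296 in thirties clones TKO 35, TKO 37, Ctrl 33 and Ctrl 34. *Lamb1* (chr12:31950099-32014509, mm9) had 6239, 8328, 7803 and 9513 in the forties clones, against 3719, 3432, 6208 and 4135 in the thirties clones. Every forties clone was above every thirties clone in both genes, by a log2 change of 1.00 (standard error 0.12, adjusted p = 0.00139) and of 0.89 (standard error 0.15, adjusted p = 0.00459). *Lamc1* had 13680, 17020, 12910 and 13190 in the forties clones, against 15630, 14320, 15060 and 14700 in the thirties clones. Its series overlapped, and the change was -0.08 (standard error 0.09, adjusted p = 0.585). Per kilobase, *Lama1* stood at 0.124 to 0.177 of *Lamc1* in the forties clones and at 0.0706 to 0.0752 in the thirties clones.

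**Figure D3:**
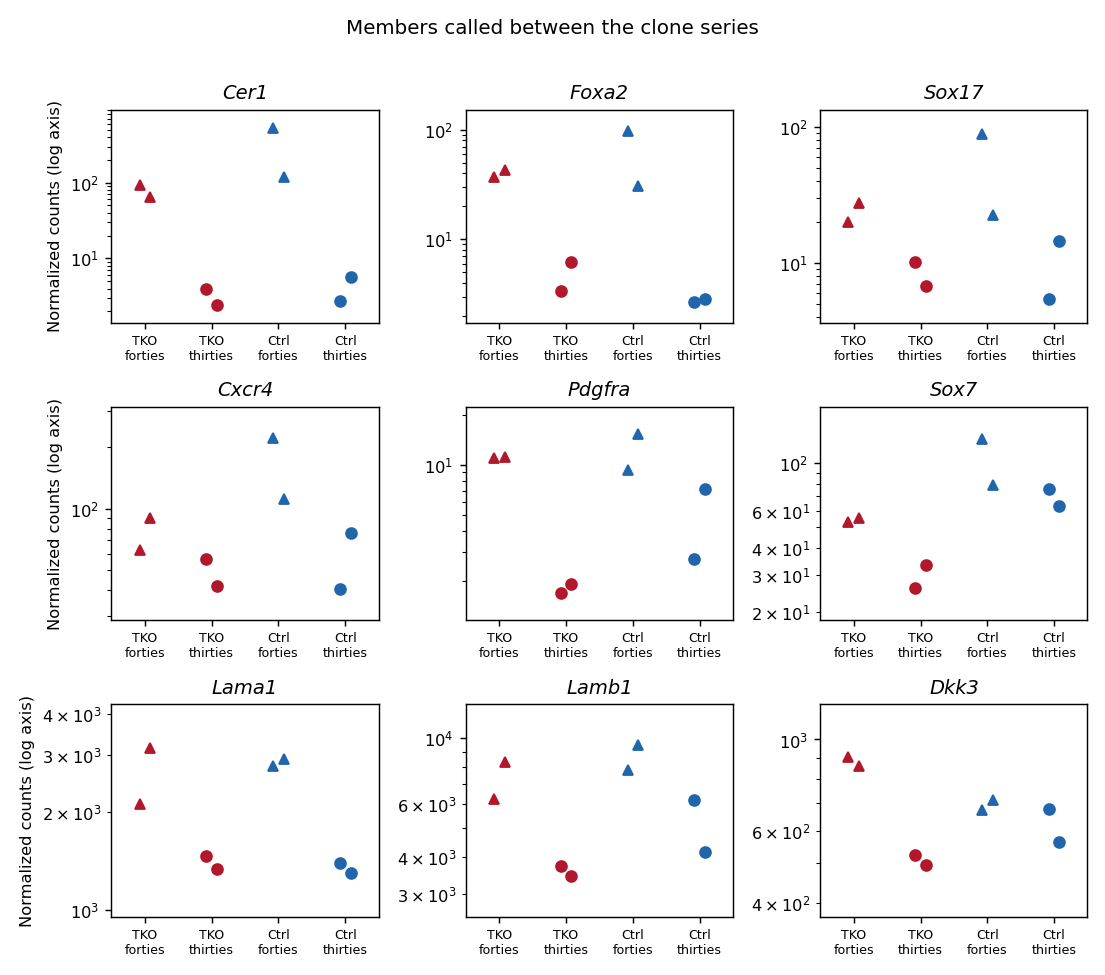
Normalized counts on log axes of the 9 endoderm genes called between the clone series, 1 panel a gene, with forties clones (triangles) left of thirties clones (circles) in each genotype. *Cer1* and *Foxa2* show the widest gaps, with log2 changes of 5.22 and 3.42, and in *Dkk3*, *Cxcr4* and *Sox7* the series overlap.

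The calls of *Cer1*, *Foxa2*, *Lama1* and *Lamb1* held when each clone was left out in turn. The other 5 lost theirs without at least 2 of the clones, and the number of members called ran from 4 without TKO 37 to 8 without Ctrl 34 or TKO 47. It was 5 without TKO 35, 5 without TKO 48 and 5 where at least 10 reads were asked of every library, a filter that leaves out *Cer1*, *Foxa2*, *Sox17* and *Pdgfra*. These genes met the main filter through their forties clones and would not have passed it on the thirties clones alone. The fits that left out a clone kept the same records, so the series calls of these genes are no independent result. *Hnf4a*, at -1.11 (adjusted p = 0.0613), also passed with DESeq2, with limma-voom and without the filter, as the 1 lower member of those fits. Among the fits that left out a clone, a lower member was called without TKO 47, where it was *Hnf4a*, and without Ctrl 34, where it was *Apoe*.

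The contrast of forties with thirties was also taken within each genotype, an alternative chosen after the data were seen. Within TKO clones 7 members rose and 1 fell in the forties clones (background 23.9% of records called, 13.0% higher and 10.9% lower), and within Ctrl clones 3 rose and 2 fell (background 6.58%, 3.26% higher and 3.32% lower). *Cer1*, *Foxa2* and *Lama1* rose in both, with *Cer1* at 4.60 in TKO and 6.09 in Ctrl clones (adjusted p = 0.00522 and 0.00941). In Ctrl clones *Col4a1* and *Col4a2* fell, and in TKO clones *Amn*, the gene of the membrane anchor amnionless, fell while *Dab2*, *Dkk3*, *Lamb1* and *Pdgfra* rose. The interaction of genotype and series was past the threshold for *Col4a2* alone among these genes, so the other differences between the genotypes in what passed were not established.

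Genes of the wider lists called between the series were named after their values were seen. Their counts stand beside the same 19.4% of all records called, 9.84% higher and 9.56% lower. Of the 11 tested genes of definitive endoderm and anterior mesendoderm 4 rose in the forties clones and 0 fell. *Lhx1*, a LIM homeobox factor of anterior mesendoderm, had 52.1 and 113 normalized counts in forties clones TKO 47 and TKO 48 and 535 and 188.5 in Ctrl 41 and Ctrl 43, against 2.26 and 0 in thirties clones TKO 35 and TKO 37 and 8.13 and 2.88 in Ctrl 33 and Ctrl 34. The series did not overlap and the highest value was again that of Ctrl 41. *Lhx1* passed the filter through its forties clones alone, with 4, 0, 3 and 2 reads in TKO 35, TKO 37, Ctrl 33 and Ctrl 34, so its call is no independent result. *Trh* (2.97), the gene of thyrotropin-releasing hormone, and the homeobox genes *Mixl1* (2.76) and *Otx2* (1.80) rose as well, with adjusted p from 0.000496 to 0.0019. Among the 15 tested other visceral and primitive endoderm genes 2 rose, *Emb* (1.23), the gene of the surface protein embigin, and *Bmp2* (1.25), a BMP ligand, and *Trf* (-0.88), the gene of transferrin, was among those that fell. Of the 16 tested parietal and basement membrane genes, *Plat* (0.51), the gene of tissue plasminogen activator, rose, and *Sparc* (-0.51), a matrix protein, and *Lgmn* (-0.35), a lysosomal protease, fell, a share near that of all records. Of the markers of other cell types, 5 of 20 fibroblast markers rose and 1 fell, and of the 7 tested trophoblast markers *Hand1*, *Plet1* and *Gata3* fell and 0 rose. The part of these markers in the endoderm changes was not tested.

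Within the series, TKO and Ctrl clones were compared in a model of 4 groups with 2 clones each. In the forties *Gc* was the 1 member called of 25, and it fell, beside a background of 1.98% of records called, 1.17% lower. An unadjusted p under 0.05 was found in 5 higher and 5 lower members, beside 1543 higher and 1672 lower of all 16235 records. In the thirties 7 members were lower and 4 higher at an unadjusted p under 0.05. Of all 16235 records 2658 were lower and 2186 higher at that level. Past the adjusted threshold, 5 members fell and 0 rose there, beside a background of 11.9% called, 4.83% higher and 7.05% lower. These were *Gc*, *Sox7* (-1.21, adjusted p = 0.0406), the collagen genes *Col4a2* (-0.85, adjusted p = 0.0222) and *Col4a1* (-0.79, adjusted p = 0.0430), and *Dab2* (-0.81, adjusted p = 0.0474), whose product is an adaptor for endocytosis in visceral endoderm. Fitted on the 4 thirties clones alone, *Gc* and *Hnf4a* were the 2 members called, and the adjusted p of *Sox7*, *Col4a2*, *Col4a1* and *Dab2* was 0.0598, 0.0681, 0.0866 and 0.0981. The members did not keep one direction across the series: 10 were negative in both, 4 positive in both and 11 of opposite sign.

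**Figure D4:**
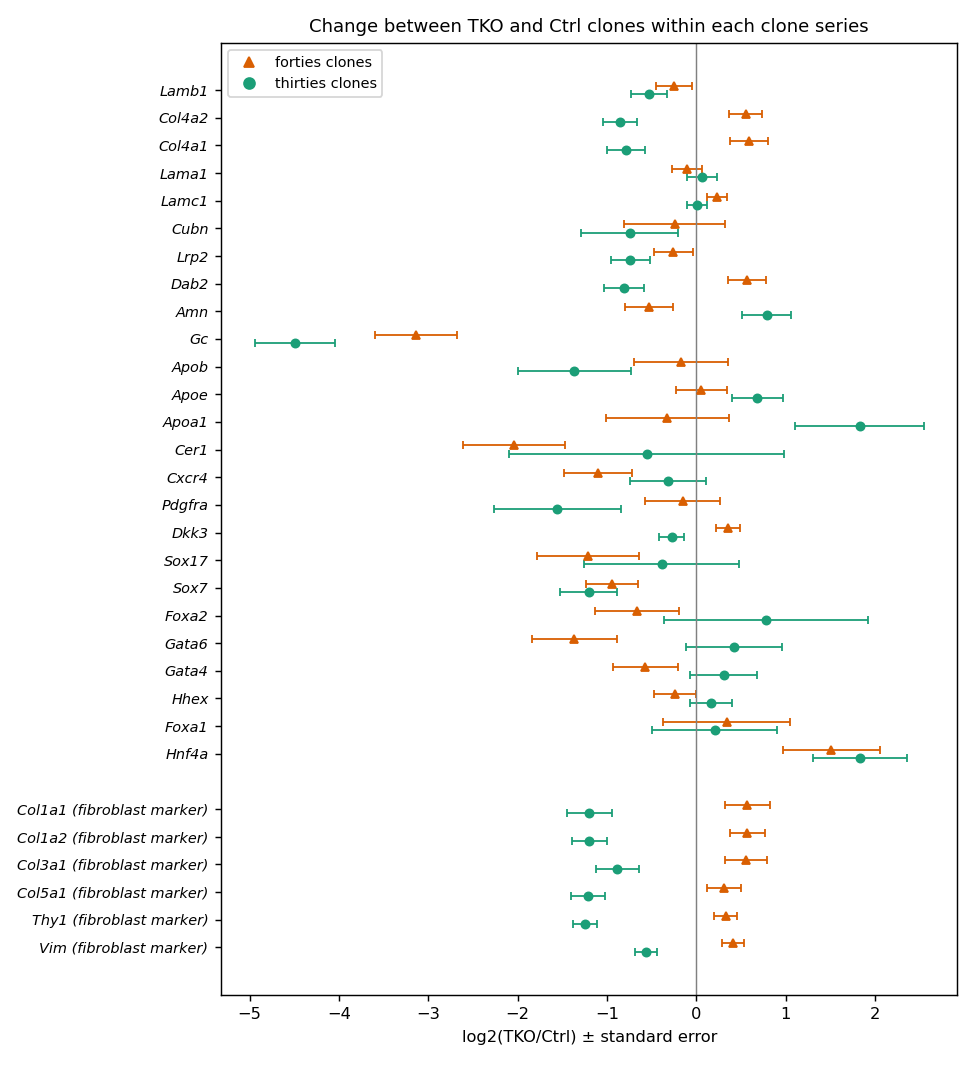
Log2 change between TKO and Ctrl clones within the forties (triangles) and within the thirties clones (circles), with bars of 1 standard error, for the 25 tested endoderm genes and, in the lower block, 6 fibroblast markers. *Gc* lies far to the left in both series, and *Col4a1*, *Col4a2* and *Dab2* lie right of 0 in the forties and left of 0 in the thirties, as do the fibroblast markers shown.

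The test of the difference between the series, the interaction of genotype and series, called 1 of 25 members, *Col4a2*, beside 1.3% of all records, 1.03% higher. *Col4a2* had 3269 and 3593 normalized counts in forties clones TKO 47 and TKO 48, against 2539 and 2147 in Ctrl 41 and Ctrl 43. In the thirties it had 3085 and 2888 in TKO 35 and TKO 37, against 6618 and 4206 in Ctrl 33 and Ctrl 34. The TKO clones of both series were close to each other, and the Ctrl clones lay above them in the thirties and below them in the forties. The change was 0.55 (standard error 0.19) in the forties and -0.85 (standard error 0.19) in the thirties, a difference of 1.40 (standard error 0.26, adjusted p = 0.0450). *Col4a1* had 4549 and 5760 in forties clones TKO 47 and TKO 48, against 3814 and 3059 in Ctrl 41 and Ctrl 43. In the thirties it had 4448 and 4346 in TKO 35 and TKO 37, against 9375 and 5807 in Ctrl 33 and Ctrl 34. The order of the groups was that of *Col4a2*, and the difference of 1.37 (standard error 0.30) missed the threshold (adjusted p = 0.0607).

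*Col4a1* (chr8:11198423-11312826, mm9, minus strand) and *Col4a2* (chr8:11312805-11449287, plus strand) encode the chains that form the common trimer of type IV collagen, and are transcribed from neighbouring starts in opposite directions, with annotations that overlap by 22 bases. The ratio of *Col4a1* to *Col4a2* per kilobase stayed between 1.34 and 1.55 in the 8 clones. The call of *Col4a2* was lost without Ctrl 41, Ctrl 43, TKO 35, TKO 37 or TKO 48 (adjusted p up to 0.242, log2 difference 1.04 to 1.70 over all clones left out), and 0 members were called in each of these 5 fits. With DESeq2 or without the filter, *Col4a1* and *Dab2* passed as well.

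Both collagens are also made by fibroblasts, which were the cells the clones were derived from and also the feeder cells of the picked colonies. The fibroblast markers moved in the same way. In the thirties 14 of 20 fell in TKO clones and 0 rose, beside 7.05% of all records lower and 4.83% higher. The median was -1.20, with an unadjusted p under 0.05 in 17 lower and 0 higher (2658 and 2186 of all 16235 records). In the forties 0 of 20 passed, beside 1.98% of all records. The median was 0.48, with an unadjusted p under 0.05 in 9 higher and 1 lower (1543 and 1672 of all records). The interaction was positive for all 20, beside 8398 of all 16235 records, and past the threshold for 9, beside 1.3% of all records. These 9 were led by *S100a4* (1.94), *Thy1* (1.58), *Twist2* (2.54), *Postn* (1.83), *Fbn1* (1.70) and *Col1a2* (1.77), with adjusted p from 0.0197 to 0.0310. The summed fibroblast markers came to 81920 and 75010 normalized counts in forties clones TKO 47 and TKO 48, against 56690 and 60280 in Ctrl 41 and Ctrl 43, and in the thirties to 45890 and 43120 in TKO 35 and TKO 37, against 108100 and 73130 in Ctrl 33 and Ctrl 34. Their part in the collagen changes was not tested.

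**Figure D5:**
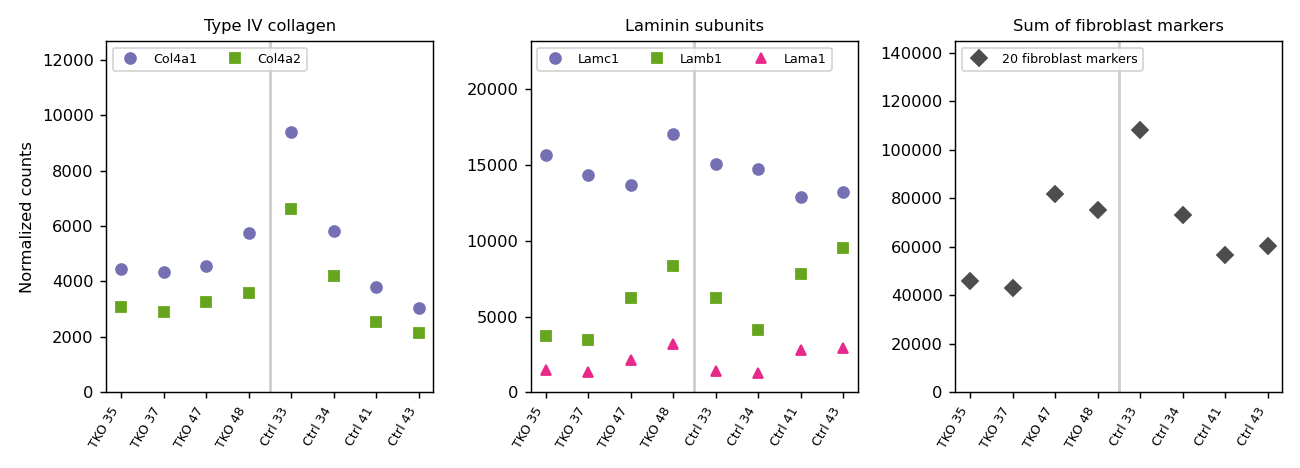
Normalized counts of the type IV collagen genes, of the laminin-111 chains and of the sum of 20 fibroblast markers in each clone, TKO left and Ctrl right of the grey line. *Col4a1* and *Col4a2* keep their order in every clone and are highest in Ctrl 33, *Lamc1* stays between 12910 and 17020, and *Lamb1* and *Lama1* are higher in clones 47, 48, 41 and 43.

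Of the 4 members of endocytic uptake none was called over all clones between the series (19.4% of all records) or between the genotypes (0.24%). An unadjusted p under 0.05 was found for 0 between the series, beside 2896 higher and 2823 lower of all 16235 records. Between the genotypes it was found for 1, *Lrp2*, beside 14.8% of all records. As given above, *Dab2* and *Amn* were called between the series within TKO clones, and *Dab2* between the genotypes in the thirties. *Lrp2*, the gene of the large receptor megalin, had 738, 631, 749 and 1172 normalized counts in TKO 35, 37, 47 and 48, against 959, 1318, 1170.0 and 1128 in Ctrl 33, 34, 41 and 43. TKO 48 lay within the Ctrl range and the other TKO clones below it (a log2 change of -0.48 with a standard error of 0.19, adjusted p = 0.307). *Amn* had 212, 193, 119 and 65.0 in the TKO clones, against 116.5, 118, 133 and 131 in the Ctrl clones. The Ctrl clones were close together, and the TKO clones lay above them in the thirties and within or below their range in the forties (-0.53 in the forties, 0.79 in the thirties, interaction -1.31, adjusted p = 0.121). *Cubn*, the gene of cubilin, the partner that amnionless anchors in the membrane, ranged over 19.0 to 38.6 in TKO and 23.9 to 92.1 in Ctrl clones (-0.55, adjusted p = 0.569). *Dab2*, with 4 records for its symbol, had 47.5, 55.5, 109 and 99.2 in TKO 35, 37, 47 and 48, against 86.7, 93.6, 69.6 and 71.3 in Ctrl 33, 34, 41 and 43. The TKO clones lay above the Ctrl clones in the forties and below them in the thirties, with an interaction of 1.37 (standard error 0.31, adjusted p = 0.0659).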

How the data were processed

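RNA of 8 individual iPSC clones was sequenced single-end (Illumina TruSeq RNA kit, HiSeq 2000). Per the labels and the methods of the study, the authors mapped the reads with BWA (0.7.5a in the submitters' processing notes) to mm9 transcript sequences. The deposited table gives a read count for each of 27052 RefSeq records in each library, in whole numbers and without scaling or a filter. The rule for reads that match several records and for strand is not given in the sources used here. Genes with near-identical copies are therefore uncertain, and so are symbols with several records. Of the records of such symbols 28.4% were at 0 in all libraries, against 13.2% for symbols with 1 record. Their median mean count was 1.625, against 100.2 for symbols with 1 record.

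Symbols of 26321 records came from a RefSeq table of GRCm38.p6, used for names, and 731 had none. Positions came from GENCODE vM1 on mm9. Windows before the transcript start matched 21 of the 29 members.

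The 16235 records with 5 or more reads in 4 or more of the 8 libraries were scaled by median-ratio size factors and tested with edgeR's quasi-likelihood test (glmQLFit, not robust), with Benjamini-Hochberg adjustment over all of them and a threshold of 0.05. The models were genotype alone, genotype with clone series, and 4 groups of genotype and series for the changes within series and their interaction. A standard error is the absolute log2 fold change over the root of F. R 4.3.3, edgeR 4.0.16, DESeq2 1.42.0 and limma 3.58.1 were used, and the fits were tested on simulated counts. The *Miwi2* record was not analysed here.

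Alternatives were TMM scaling, 2 other filters, DESeq2, limma-voom, summed records, other terms, each series alone and leaving out each clone. Leave-one-out and single-series fits kept the 16235 records. The members and gene lists were chosen with earlier results of these data known. Values by clone are given for members called in any fit and for the 2 most abundant of each role, other members by ranges, and genes of other lists where called between genotypes or in the interaction. Those called between series only, and *Afm* and *Alb*, were added after their values were seen. A gene of the wider lists is not reported here by name.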

Additional observations from a re-analysis of the deposited data

Results flagged for a closer look

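*Col4a1* in TKO 48 stood apart from the other TKO clones, at 5760 normalized counts against 4346 to 4549 in the other 3. The gap to the nearest clone was 0.856 of the range of the group, above the 95% critical value of Dixon's test for 4 samples. It was the 1 flag in 50 groups of member and genotype, where chance gives about 1 in 20.

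The change of *Col4a2* between TKO and Ctrl clones differed between the clone series by 1.40 on the log2 scale (forties minus thirties), as tested by the interaction term in edgeR (standard error 0.26, adjusted p = 0.0450, with 0.000169 to 0.242 over its alternatives).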

How the results depend on the processing

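No paired analysis was possible because TKO and Ctrl clones share no number. With TMM scaling the counts of members called between genotypes, between series and in the interaction were as reported. Between genotypes the count of 1 became 0 with at least 10 reads in every library, 2 with DESeq2 and 3 with the series as a term, and was 1 without each clone. Over all records, the 39 calls became 465 with DESeq2, 926 with the series term and 14 to 83 without a clone. With the series term the 3 members became 1 to 5 and the 926 records 93 to 1640 without a clone. Between series the 9 members became 5 with at least 10 reads and 4 to 8 without a clone, and the 3149 records 1413 without a genotype term and 1296 to 3831 without a clone. The interaction count of 1 became 3 without the filter, 3 with DESeq2 and 0 to 4 without a clone, and its 211 records 671, 813 and 1 to 1314. In the thirties fitted alone, 2 members and 960 records were called, against 5 and 1928. Among members not called between genotypes the sign turned for *Hhex* (0.0163) and *Dkk3* (-0.0191) with limma-voom. Without a clone it turned for *Hhex* (-0.13 to 0.0781), *Dkk3* (-0.0689 to 0.22), *Col4a1* (-0.40 to 0.18), *Col4a2* (-0.47 to 0.11), *Dab2* (-0.25 to 0.13), *Gata4* (-0.30 to 0.20), *Sox17* (-1.55 to 0.0389), *Foxa2* (-1.32 to 0.64), *Lama1* (-0.36 to 0.15) and *Foxa1* (-0.0186 to 0.59). The causes were not tested. Members with few reads (*Gc*, *Pdgfra*, *Apoa1* and the 4 without a fit) are limited by depth, as are *Cer1*, *Foxa2* and *Sox17* in the thirties clones. *Pdgfra* and *Rbp4* are also limited by the unknown rule for reads shared between their 2 records.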
